A study of Mus musculus with 16 samples.

Results

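Sterol and fatty acid synthesis was followed through 8 genes: Hmgcs1 and Sqle of cholesterol synthesis, Fasn, Scd1 and Scd2 of fatty acid synthesis and desaturation, and the regulators Srebf1, Srebf2 and Insig1. Each was read by the probe set annotated with that symbol alone, and each had 1 such probe set. The 8 were among 19938 genes with a probe set of a single symbol on a whole-transcript array. The cells, which the labels call CD11b+ DCs (dendritic cells), were sorted from lung by the integrins CD11c and CD11b together with surface MHC2, the antigen-presenting molecule. They came from C57BL/6 mice that carried an orthotopic tumour of Lewis lung carcinoma (LLC), a mouse lung cancer line of the same strain, placed in the airways. The tumoral group (8 arrays) held cells from lung tumour and the peritumoral group (8 arrays) cells from the lung tissue beside it, so the mice of both groups bore tumours. No healthy lung, treatment, age or time point is given. The source animal, or pool of animals, is not named for any array, and p-values therefore measure only the spread between these samples, which may be technical. Arrays were numbered 1 to 8 in their titles, and the deposited order was that of the numbers within each label.

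Cells build cholesterol from acetyl-CoA by way of mevalonate and squalene, and long fatty acids from acetyl-CoA and malonyl-CoA. The membrane-bound transcription factors SREBP1 and SREBP2, encoded by Srebf1 and Srebf2, switch on both routes. When sterols are scarce the escort protein SCAP carries them to the Golgi, where proteases release their active part, and when sterols are plentiful INSIG proteins hold SCAP back in the endoplasmic reticulum. Insig1, Hmgcs1 and Sqle are classical SREBP2 targets, whereas Fasn and Scd1 are classical SREBP1 targets. In lung, type II alveolar cells make much fatty acid for surfactant lipid. In macrophages and dendritic cells these genes are known to follow sterol load and inflammatory stimulation.

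The window from 250 bases before to 50 bases after the transcription start was available from RefSeq (GRCm38.p6) for Hmgcs1, Fasn, Srebf1, Srebf2 and Insig1, and is shown for Hmgcs1 and Insig1, which gave the highest correlation among the 4 of the 8 genes tied to cholesterol synthesis and SREBP2 (Hmgcs1, Sqle, Srebf2 and Insig1), and for the SREBP genes themselves. Capitals mark 3 motifs searched on both strands: TCACNCCAC, the core of the sterol regulatory element, ATTGG, the CCAAT box read on the other strand, and GGGCGG, the GC box. The longer element, which is the core with C for its N and an A before it, was also searched, overlaps the core and was found in none of the windows.
Hmgcs1, chr13:119690101-119690400, plus strand: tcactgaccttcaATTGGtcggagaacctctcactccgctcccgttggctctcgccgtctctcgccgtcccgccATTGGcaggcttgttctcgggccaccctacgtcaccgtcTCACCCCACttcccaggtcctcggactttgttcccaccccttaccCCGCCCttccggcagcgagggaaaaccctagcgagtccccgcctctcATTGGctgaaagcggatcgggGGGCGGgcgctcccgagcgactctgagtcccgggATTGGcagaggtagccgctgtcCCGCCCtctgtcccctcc
Insig1, chr5:28071162-28071461, plus strand: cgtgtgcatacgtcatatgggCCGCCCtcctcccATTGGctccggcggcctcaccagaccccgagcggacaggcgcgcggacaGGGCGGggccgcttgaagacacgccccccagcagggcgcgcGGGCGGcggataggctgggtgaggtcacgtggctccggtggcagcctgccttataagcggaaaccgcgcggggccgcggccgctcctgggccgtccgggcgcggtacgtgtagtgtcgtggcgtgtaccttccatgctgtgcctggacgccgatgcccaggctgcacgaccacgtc
Srebf2, chr15:82147019-82147318, plus strand: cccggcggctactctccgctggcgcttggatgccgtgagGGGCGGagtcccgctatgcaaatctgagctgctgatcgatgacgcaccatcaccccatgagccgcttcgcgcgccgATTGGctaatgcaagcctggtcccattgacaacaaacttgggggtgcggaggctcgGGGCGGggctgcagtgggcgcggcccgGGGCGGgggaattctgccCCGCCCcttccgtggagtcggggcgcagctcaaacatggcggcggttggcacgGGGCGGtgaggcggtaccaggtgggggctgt
Srebf1, chr11:60210422-60210721, minus strand, the start of 3 listed that held both a CCAAT box and a GC box: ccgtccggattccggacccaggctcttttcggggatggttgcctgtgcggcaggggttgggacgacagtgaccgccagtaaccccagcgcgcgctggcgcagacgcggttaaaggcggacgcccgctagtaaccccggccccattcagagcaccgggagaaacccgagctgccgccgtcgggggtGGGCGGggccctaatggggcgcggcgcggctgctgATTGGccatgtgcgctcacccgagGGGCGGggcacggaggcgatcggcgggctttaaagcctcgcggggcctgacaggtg
The Hmgcs1 window held 1 match to the core element, at position -137 from the start (first base of the match), with 4 CCAAT boxes and 3 GC boxes. The Insig1 window held 1 CCAAT box and 3 GC boxes, the Srebf2 window 1 and 5, and the Fasn window 3 CCAAT boxes and no GC box. The Srebf1 window shown, picked because it held both, had 1 and 2. The Srebf1 window at 60222532-60222831 held 1 CCAAT box and 0 GC boxes, and that at 60220578-60220877 held 0 and 3. Of 32851 windows of this length in the table, 1.24% held the core element, 0.0913% the longer one, 37.4% a CCAAT box and 35.7% a GC box. A match describes letters only and is not evidence of binding.

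The arrays had to be read with other cell types in view, since peritumoral 4 stood apart from all others. The mean of 10 type II alveolar cell genes was 10.08 on the log2 scale in peritumoral 4, against 7.46 to 8.35 in the other 15 arrays, and the mean of 10 endothelial genes was 10.92 there, against 8.65 or less. Fibroblast genes averaged 9.39 and lymphocyte genes 8.65 in the same array, each above every other array. It was not the only such array. The endothelial mean was 8.65 in peritumoral 7, where the arrays other than peritumoral 4 gave 7.43 or less. Neutrophil genes averaged 7.68 in peritumoral 5 and 7.83 in peritumoral 4, against 6.79 or less elsewhere. Leaving out peritumoral 4 alone thus does not remove all arrays high in markers of other cells. Arrays also differed in the markers of the sorted cells: Flt3, a receptor of conventional dendritic cells, ran from 8.74 to 10.45 in tumoral arrays and from 8.73 to 10.32 in peritumoral arrays, and was lowest in peritumoral 6 and 3 and in tumoral 4 and 1. The mean of 10 dendritic cell and sorting genes was 11.07 to 11.67 in tumoral arrays and 10.99 to 11.67 in peritumoral arrays, and its groups overlapped almost entirely. The sorting markers Itgax and Itgam, for CD11c and CD11b, were bright in all 16 arrays, with lowest values of 11.07 and 10.18, both in peritumoral 4. As these were bulk RNA samples of sorted cells, fewer cells of a type and less RNA per cell cannot be told apart.

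None of the 8 genes passed the test between tumoral and peritumoral cells. Over 19938 genes the limma fit made 0 calls after adjustment (0%), with a smallest adjusted p of 0.232, and the rank-sum test made 0 as well. At an unadjusted p under 0.05 limma listed 1116 genes higher (5.60%) and 1176 lower (5.90%) in tumoral arrays (11.5% in either direction), and among the 8 genes 0 higher and 2 lower, Scd1 and Scd2. The 8 split evenly, with 4 higher and 4 lower on average and a median difference of 0.003, against -0.02 over all genes, 41.7% of which were higher. In none of the 8 did the groups stay apart, as happened in 0.0853% of all genes. The log base of the deposited values is not stated, so differences assume log base 2.

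**Figure D1:**
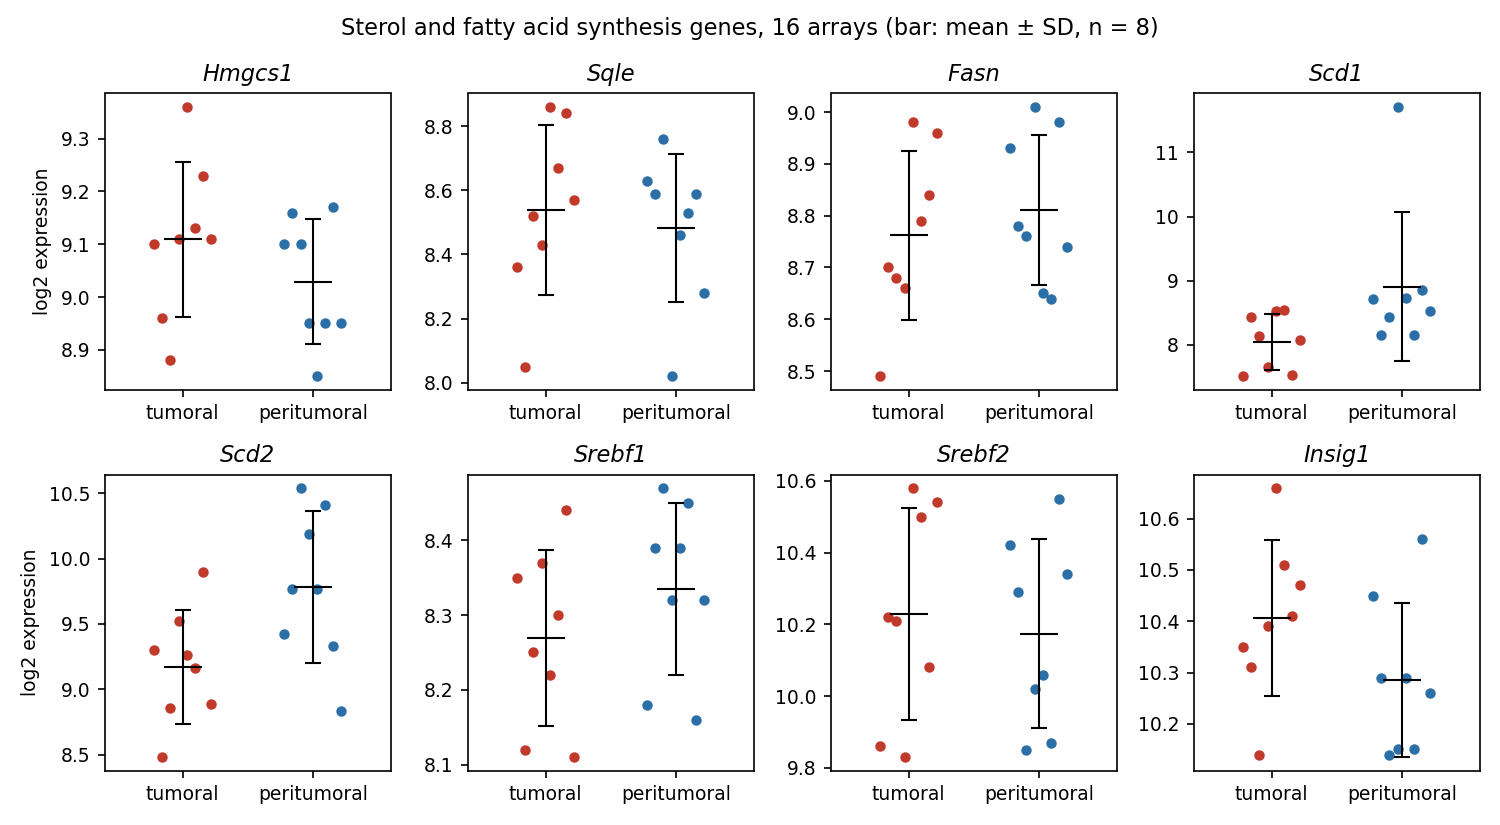
Log2 expression of the 8 genes in each array, tumoral left and peritumoral right, with points in title order within a group and bars for the mean ± SD (n = 8). The groups overlap in every panel, and Scd1 in peritumoral 4 (11.71) lies far above the other 15 arrays.

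Scd1 and Scd2 encode stearoyl-CoA desaturases, which put the first double bond into long saturated fatty acids, and they showed the widest differences of the 8. Scd1 measured 7.51, 8.44, 8.13, 7.65, 8.53, 8.54, 7.53 and 8.08 in tumoral 1 to 8. In peritumoral 1 to 8 it measured 8.71, 8.15, 8.44, 11.71, 8.73, 8.15, 8.86 and 8.52. All 8 tumoral values lay below the peritumoral median of 8.62, yet the groups overlapped between 8.15 and 8.54. The group means were 8.05 ± 0.44 in tumoral and 8.91 ± 1.16 in peritumoral arrays (SD, n = 8 each), a difference of -0.86 with a standard error of 0.39 (limma, adjusted p = 0.416). It was the 70th largest difference among all genes in absolute size. Without peritumoral 4 the difference was -0.46 (limma, adjusted p = 0.403).

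Scd1 varied with the marker lists of several other lung cells from array to array. Of the 10 type II alveolar cell genes 9 were lower on average in tumoral arrays, 0 past the threshold, with a list mean of 7.53 to 8.17 in tumoral and 7.46 to 10.08 in peritumoral arrays. The fibroblast list mean ran from 6.59 to 7.36 in tumoral and from 7.35 to 9.39 in peritumoral arrays, with all 10 genes lower on average and 0 past the threshold. Over the 15 arrays without peritumoral 4, Pearson's r between Scd1 and the list mean was 0.72 for type II alveolar cells and 0.85 for fibroblasts. Over all 16 arrays the values were 0.94 and 0.96, with Spearman's rho of 0.72 and 0.74 (permutation test, adjusted p = 0.00216 and 0.00096 for r, 0.024 and 0.0233 for rho, over 72 pairs of a gene and a list). Without peritumoral 4 and tumoral 1, the arrays farthest from the Scd1 median, r was 0.71 and 0.84. Within tumoral arrays r was 0.91 and 0.78, and within peritumoral arrays, peritumoral 4 included, 0.95 and 0.98. The lymphocyte, neutrophil and endothelial lists also passed by both measures over 16 arrays (r = 0.95, 0.80 and 0.91, rho = 0.74, 0.79 and 0.71), with r of 0.74, 0.67 and 0.53 and rho of 0.69, 0.75 and 0.65 without peritumoral 4, and r of 0.74, 0.65 and 0.55 without peritumoral 4 and tumoral 1. Alveolar macrophage genes passed by r alone (r = 0.89, rho = 0.56) and keratin and carcinoma genes by neither (r = 0.78, rho = 0.35), with r of 0.42 and 0.21 without peritumoral 4.

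In each of these 5 lists every gene was lower on average in tumoral arrays and 0 passed. The difference of the list means was -0.39 for lymphocyte, -0.53 for neutrophil, -0.92 for endothelial, -0.29 for alveolar macrophage and -0.40 for keratin and carcinoma genes. Without peritumoral 4 these were -0.11, -0.35, -0.47, -0.11 and -0.29, and those of type II alveolar cells and fibroblasts were -0.11 and -0.45, against -0.37 and -0.68 over all arrays. Adipocytes are another lineage rich in Scd1. With the 7 adipocyte genes, 5 of them lower on average in tumoral arrays and 0 past the threshold, Scd1 gave r = 0.52 and rho = 0.06 over 16 arrays (permutation test, adjusted p = 0.156 and 0.902). That r was 0.10 within tumoral arrays, 0.76 within peritumoral arrays and -0.07 without peritumoral 4, where the adipocyte list was highest (6.48). With the dendritic cell and sorting genes Scd1 gave r = 0.01 and rho = 0.42 over 16 arrays, 0.90 within tumoral and -0.24 within peritumoral arrays, and r = 0.63 without peritumoral 4. The part of these cells in the Scd1 difference was not tested.

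**Figure D2:**
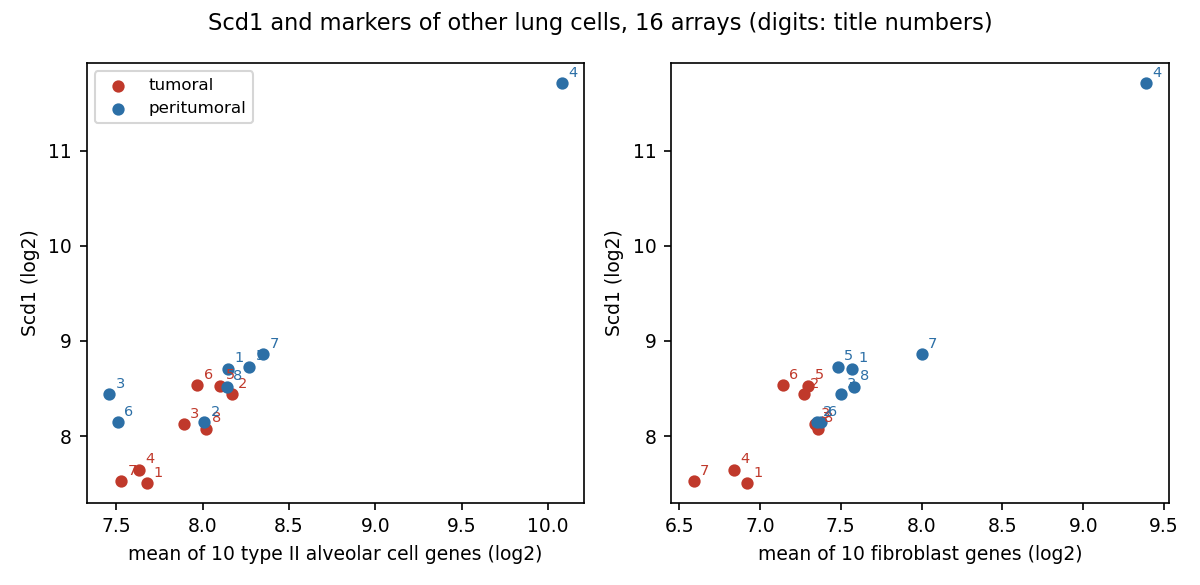
Log2 expression of Scd1 in each array against the mean log2 level of 10 type II alveolar cell genes (left) and 10 fibroblast genes (right), with tumoral arrays in red, peritumoral arrays in blue and the title number beside each point. Peritumoral 4 stands alone at the upper right, and the other 15 arrays still slope upward in both panels (r = 0.72 and 0.85).

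Scd2, the desaturase that is widespread outside liver and fat, measured 9.30, 8.48, 8.86, 9.52, 9.26, 9.16, 9.90 and 8.89 in tumoral 1 to 8. Peritumoral 1 to 8 gave 9.42, 9.77, 10.54, 10.19, 9.77, 10.41, 9.33 and 8.83. Only tumoral 7 exceeded the peritumoral median of 9.77, while peritumoral 8 lay among the low tumoral values. The means were 9.17 ± 0.43 and 9.78 ± 0.58 in tumoral and peritumoral arrays, a difference of -0.61 with a standard error of 0.23 (limma, adjusted p = 0.342). This was the 190th largest of all differences. Without peritumoral 7 and 8, which held the lowest Scd2 values of their group, the difference was -0.845 and passed (limma, adjusted p = 0.0443), in a setting where 522 of all genes passed. Leaving out either alone gave -0.676 and -0.748 and no call (limma, adjusted p = 0.207 and 0.149). Without peritumoral 4 the Scd2 difference was -0.55. Scd2 varied with the keratin and carcinoma genes (r = 0.63, rho = 0.59, permutation adjusted p = 0.0335 and 0.104), all 6 of which were lower on average in tumoral arrays, with list means of 7.10 to 7.41 in tumoral and 7.27 to 8.41 in peritumoral arrays. Within tumoral arrays that r was -0.01 and within peritumoral arrays 0.58. Scd2 varied against the dendritic cell and sorting genes (r = -0.68, rho = -0.55, permutation adjusted p = 0.027 and 0.133), with r of -0.62 within tumoral and -0.85 within peritumoral arrays. That relation was weak among the 6 arrays lowest in this list (tumoral 1, 4 and 7, peritumoral 3, 4 and 6, r = -0.18). Among the 10 others r was -0.15. Without peritumoral 3 and 6, the arrays farthest from the Scd2 median, r was 0.58 with the keratin and carcinoma genes and -0.51 with the dendritic cell and sorting genes. Their part in the Scd2 difference was not tested. No relation between Scd1 and Scd2 was found over the arrays (r = 0.24, permutation adjusted p = 0.542 over 28 pairs, and r = -0.12 without peritumoral 4). Their relatives Scd3 and Scd4 differed by -0.18 and -0.15. Whether the probes tell these near-identical family members apart was not tested.

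Fasn, the multi-domain fatty acid synthase, differed little. It measured 8.49, 8.70, 8.68, 8.66, 8.98, 8.79, 8.84 and 8.96 in tumoral 1 to 8, and 8.93, 8.78, 8.76, 9.01, 8.65, 8.64, 8.98 and 8.74 in peritumoral 1 to 8. The ranges nearly coincided, and the mean difference was -0.05 with a 95% interval of -0.21 to 0.12 (limma, adjusted p = 0.849). Its sign turned after centring on array medians (0.004) and without peritumoral 4 and 7 (0.013), so no direction can be given.

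Of the cholesterol synthesis genes, Hmgcs1 encodes the cytosolic HMG-CoA synthase, an early step of the mevalonate route. It measured 9.10, 8.96, 8.88, 9.11, 9.36, 9.13, 9.23 and 9.11 in tumoral 1 to 8, and 9.10, 9.16, 9.10, 8.95, 8.85, 8.95, 9.17 and 8.95 in peritumoral 1 to 8. Tumoral 5 and 7 were the only arrays above 9.20. The difference of 0.08 had a 95% interval of -0.07 to 0.23 (limma, adjusted p = 0.682). Sqle encodes squalene epoxidase, which acts on squalene later in the same route. It measured 8.36, 8.05, 8.52, 8.43, 8.86, 8.67, 8.84 and 8.57 in tumoral 1 to 8, and 8.63, 8.59, 8.76, 8.02, 8.46, 8.53, 8.59 and 8.28 in peritumoral 1 to 8. Tumoral 2 and peritumoral 4 were the lowest arrays, and tumoral 5 and 7 the highest. The difference was 0.06, with a 95% interval of -0.19 to 0.30 (limma, adjusted p = 0.894), and was -0.01 without peritumoral 4. Sqle varied against the adipocyte genes (r = -0.73, rho = -0.66, permutation adjusted p = 0.00972 and 0.0484), with r of -0.55 within tumoral and -0.93 within peritumoral arrays and -0.61 without peritumoral 4. Without peritumoral 4 and tumoral 2, the arrays farthest from its median, that r was -0.50. The adipocyte list mean ran only from 6.10 to 6.48 over the 16 arrays, below every array median (6.75 to 6.95). With the alveolar macrophage genes Sqle passed by r alone (r = -0.65, rho = -0.42, permutation adjusted p = 0.0244 and 0.335). The r with these genes was -0.46 without peritumoral 4.

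The regulators were no further apart. Insig1, which retains SCAP and is itself induced by SREBP, measured 10.35, 10.31, 10.14, 10.39, 10.66, 10.51, 10.41 and 10.47 in tumoral 1 to 8, and 10.45, 10.29, 10.14, 10.15, 10.29, 10.15, 10.56 and 10.26 in peritumoral 1 to 8. In 7 of 8 tumoral arrays it exceeded the peritumoral median of 10.27. The difference of 0.12 had a 95% interval of -0.04 to 0.28 (limma, adjusted p = 0.554), was above 0 in each of 25 alternative fits, and passed in 0 of them. Insig1 varied against the keratin and carcinoma genes (r = -0.67, rho = -0.72, permutation adjusted p = 0.0182 and 0.024), with r of -0.59 within tumoral and -0.69 within peritumoral arrays and -0.64 without the 2 arrays farthest from its median, and the part of that list in the Insig1 difference was not tested. With the dendritic cell and sorting genes Insig1 passed by rho alone (r = 0.60, rho = 0.68, permutation adjusted p = 0.0758 and 0.0413). The r with these genes was 0.32 within tumoral and 0.89 within peritumoral arrays. Srebf1 measured 8.35, 8.12, 8.25, 8.37, 8.22, 8.30, 8.44 and 8.11 in tumoral 1 to 8, and 8.18, 8.39, 8.47, 8.32, 8.39, 8.45, 8.16 and 8.32 in peritumoral 1 to 8. Its whole range of 0.36 was narrow, and the difference of -0.07 had a 95% interval of -0.20 to 0.07 (limma, adjusted p = 0.712). Srebf2 measured 9.86, 10.22, 10.21, 9.83, 10.58, 10.50, 10.08 and 10.54 in tumoral 1 to 8, and 10.42, 10.29, 9.85, 10.02, 10.06, 9.87, 10.55 and 10.34 in peritumoral 1 to 8. High and low arrays occurred under both labels, and the difference of 0.05 had a 95% interval of -0.22 to 0.33 (limma, adjusted p = 0.909).

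Arrays differed more within a label than between labels in Srebf2, and this spread followed the dendritic cell markers. Over 16 arrays Srebf2 and the mean of the 10 dendritic cell and sorting genes gave r = 0.94 and rho = 0.96 (permutation test, adjusted p = 0.00072 for each over 72 pairs, with unadjusted p = 1e-05, the smallest the test can give). Within tumoral arrays r was 0.95 and within peritumoral arrays 0.95, and it was 0.92 without tumoral 4 and peritumoral 3, the arrays farthest from the Srebf2 median. The list had its widest gap between 11.24 and 11.42, with 6 arrays below (tumoral 1, 4 and 7, peritumoral 3, 4 and 6) and 10 above. On either side of that gap r was still 0.78 and 0.89. Gene by gene, r with Srebf2 was 0.96 for Flt3, 0.95 for Zbtb46, a transcription factor of conventional dendritic cells, 0.92 for Irf4 and 0.89 for Cd209a, a lectin of this subset. Itgam and Sirpa ran the other way (r = -0.42 and -0.59). Srebf1 ran against the same list over all arrays (r = -0.76, rho = -0.78, permutation test, adjusted p = 0.00936 and 0.0146), with r of -0.79 within tumoral and -0.76 within peritumoral arrays and -0.75 without tumoral 8 and 2. Itgam and Sirpa were again the exceptions and rose with Srebf1 (r = 0.52 and 0.62). For Srebf1 the relation did not hold in the 6 arrays below the gap (r = -0.03) and was -0.73 in the 10 above. Fasn, like Insig1, passed with this list by rho alone (r = 0.49, rho = 0.65, permutation test, adjusted p = 0.163 and 0.0488). Its r was 0.69 within tumoral and 0.34 within peritumoral arrays, and 0.69 without peritumoral 4. Below and above the gap r was 0.50 and 0.92 for Fasn, and 0.47 and 0.83 for Insig1. Whether cell makeup or expression per cell differed between arrays was not tested.

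**Figure D3:**
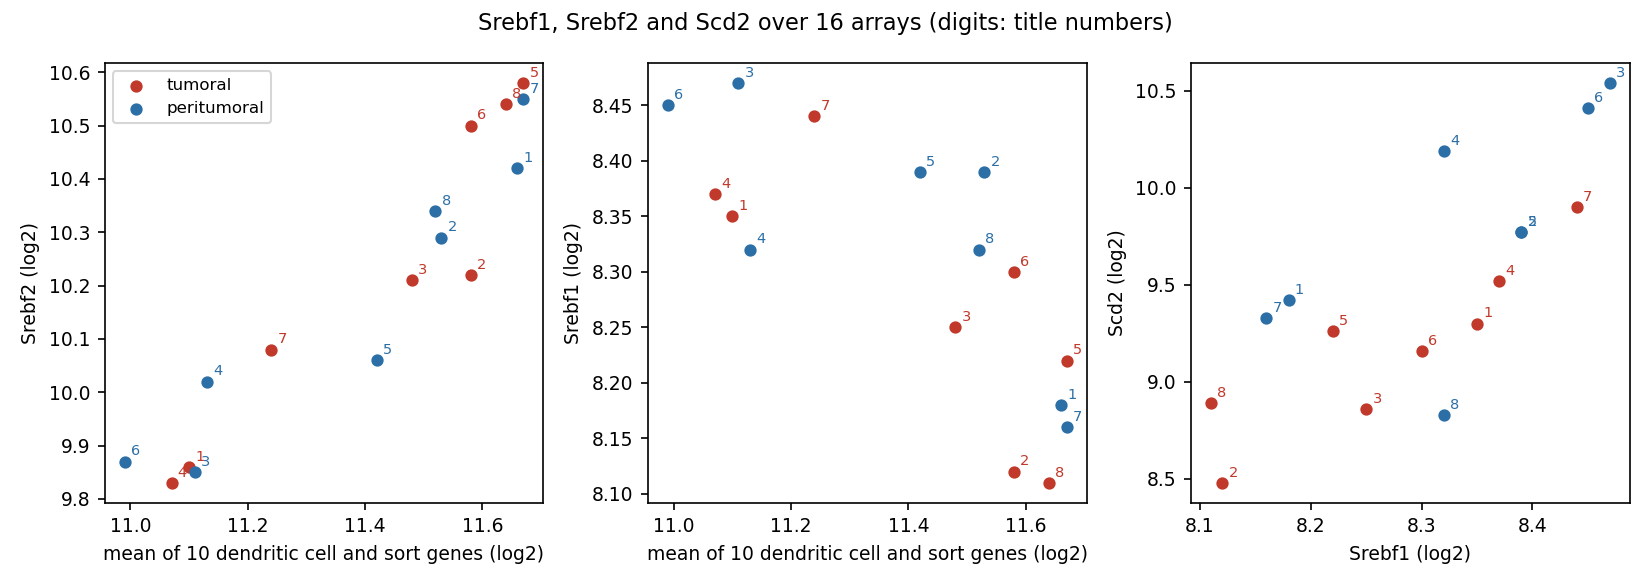
Log2 expression of Srebf2 (left) and Srebf1 (middle) against the mean log2 level of 10 dendritic cell and sorting genes, and of Scd2 against Srebf1 (right), with tumoral arrays in red, peritumoral arrays in blue and title numbers beside the points. Srebf2 climbs from 9.83 to 10.58 with the dendritic cell genes under both labels, and Srebf1 runs the other way.

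Of the 28 pairs among the 8 genes, 6 were correlated over the 16 arrays by both Pearson's r and Spearman's rho (permutation test, adjusted over the 28 pairs). Scd2 went with Srebf1 (r = 0.77, rho = 0.78, permutation adjusted p = 0.00896), with r of 0.90 within tumoral and 0.67 within peritumoral arrays. Hmgcs1 went with Insig1 (r = 0.76, rho = 0.76, permutation adjusted p = 0.00896), and r was 0.90 within tumoral and 0.52 within peritumoral arrays. Both are among the classical SREBP2 targets. With Srebf2 itself, however, neither Hmgcs1 (r = 0.38) nor Sqle (r = 0.27) passed (permutation adjusted p = 0.253 and 0.496). Sqle and Insig1 did not pass either (r = 0.46, permutation adjusted p = 0.164). Hmgcs1 also went with Sqle (r = 0.66, rho = 0.68), Srebf2 with Insig1 (r = 0.69, rho = 0.68) and Fasn with Srebf2 (r = 0.65, rho = 0.64), at permutation adjusted p of 0.0313, 0.0313 and 0.0366. Fasn, Srebf2 and Insig1 each rose with the dendritic cell and sorting genes by rho. Hmgcs1 did not pass with that list over 16 arrays (r = 0.24, rho = 0.46, permutation adjusted p = 0.647 and 0.273). Below and above the gap in the list, its r was 0.71 and 0.79. The part of that list in the pairs of these genes was not tested. Srebf1 and Srebf2 opposed each other (r = -0.73, rho = -0.74, permutation adjusted p = 0.0143). That opposition was not found within the 6 arrays below the gap in dendritic cell markers (r = -0.08) and was -0.51 in the 10 above. Srebf2 and Insig1 likewise gave 0.17 below the gap and 0.85 above it. Scd2 and Srebf1 gave 0.59 and 0.62, Hmgcs1 and Sqle 0.68 and 0.70, Fasn and Srebf2 0.72 and 0.90, and Hmgcs1 and Insig1 0.78 and 0.86. After adjustment 0 of the 6 pairs passed below the gap and 3 above it, Fasn with Srebf2, Hmgcs1 with Insig1 and Srebf2 with Insig1 (permutation test, adjusted p = 0.016 for each). The 6 arrays below allow so few orderings that hardly any r could pass there. These counts therefore cannot be set against each other. The signs were kept within both labels for all 6 pairs. Within a label, however, only Srebf2 with Insig1 in peritumoral arrays passed after adjustment (permutation test, adjusted p = 0.0368). Leaving out the 2 arrays farthest from the median of the first gene gave r of 0.66 for Scd2 and Srebf1, 0.70 for Hmgcs1 and Insig1, 0.64 for Hmgcs1 and Sqle, 0.74 for Srebf2 and Insig1, 0.77 for Fasn and Srebf2 and -0.77 for Srebf1 and Srebf2. The first 3 of these no longer passed after adjustment (permutation test, adjusted p = 0.07, 0.062 and 0.0816). Fasn and Srebf1, its classical regulator, showed no positive relation (r = -0.45, rho = -0.45, permutation adjusted p = 0.164 and 0.17).

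**Figure D4:**
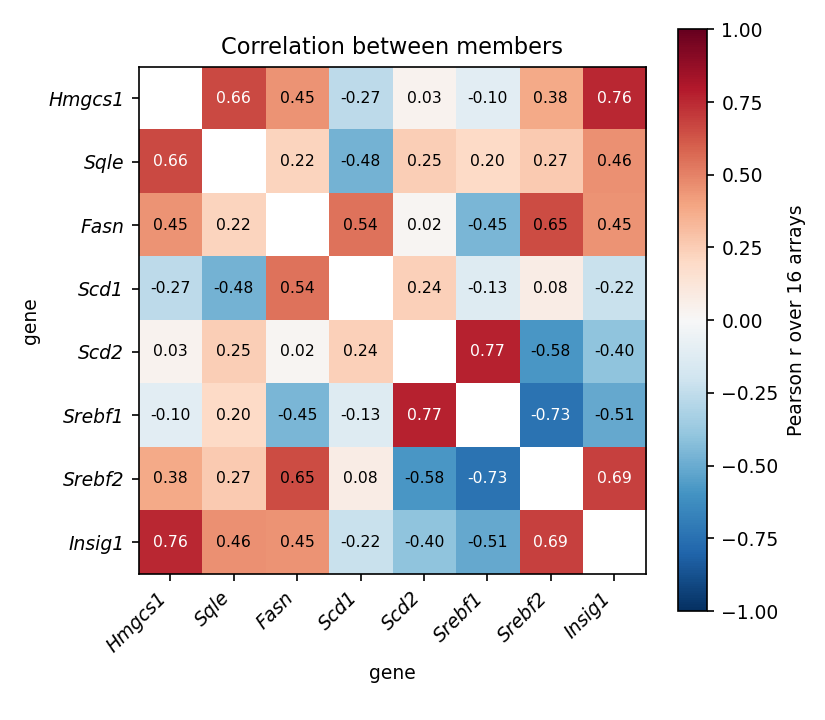
Pearson's r over 16 arrays for each pair of the 8 genes, from blue (-1) to red (1). The strongest positive pairs are Scd2 with Srebf1 (0.77) and Hmgcs1 with Insig1 (0.76), and the strongest negative one is Srebf1 with Srebf2 (-0.73).

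The genes most like each of the 8 over the 16 arrays, by Pearson's r and given as a description, included other enzymes of lipid synthesis. For Sqle they were Fdft1 (squalene synthase, r = 0.89), Zfp715 (0.86) and Acaca (acetyl-CoA carboxylase, 0.85). For Hmgcs1 they were Iws1 (0.81), Sc5d (lathosterol oxidase, 0.78) and Gripap1 (0.77), and for Insig1 they were Ccdc9 (0.88), Cyp51 (lanosterol demethylase, 0.87) and Pfkfb3 (0.87). Fasn was closest to Pde7a (0.88), Arrb1 (0.87) and Ppm1k (0.85). Scd1 was closest to Ets1 (0.99), Sgce (0.98) and Tbx2 (0.97), which gave 0.93, 0.89 and 0.87 without peritumoral 4. Scd2 was closest to Ift20, Tnfrsf22 and Dcun1d3 (0.93, 0.93 and 0.92). Srebf1 was closest to Ero1a, Rars and Surf4 (0.94, 0.94 and 0.93), and Srebf2 to Tiam1, Map4k1 and Crybg1 (0.97, 0.96 and 0.96).

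The rest of the cholesterol route was divided. Of 16 cholesterol synthesis genes measured, 0 passed in either direction, 7 were higher and 9 lower in tumoral arrays on average, and the median difference was -0.03. Those with the smallest p went both ways. Cyp51, the lanosterol demethylase, ranged from 8.56 to 9.28 around a median of 8.83 in tumoral arrays and from 7.96 to 8.98 around 8.43 in peritumoral arrays, and all 8 tumoral arrays exceeded the peritumoral median. Its difference was 0.38 ± 0.13 (standard error, limma, adjusted p = 0.298). Dhcr7, which performs the last step to cholesterol, ranged from 8.02 to 8.59 in tumoral and from 7.81 to 8.33 in peritumoral arrays, with a difference of 0.29 ± 0.09 (standard error, limma, adjusted p = 0.264). In contrast, Mvk (mevalonate kinase) and Lss (lanosterol synthase) differed by -0.15 and -0.20, and every tumoral value of Mvk lay below its peritumoral median.

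Fatty acid genes beyond the members lay lower in tumoral arrays for 14 of 18, with a median difference of -0.085 and 0 past the threshold. Most genes on the array lay lower too, 11627 of 19938, with a median of -0.02. Me1, the malic enzyme that supplies NADPH, measured 5.80 to 6.09 in tumoral and 5.96 to 7.32 in peritumoral arrays, with its highest value in peritumoral 4. The Me1 difference was -0.36 over all arrays (limma, adjusted p = 0.384) and -0.22 without peritumoral 4. Acacb, the mitochondrial acetyl-CoA carboxylase, differed by -0.17, or -0.11 without peritumoral 4, which again held its highest value (7.02). Acaca, the carboxylase of fatty acid synthesis, and Acly, which makes cytosolic acetyl-CoA from citrate, differed by 0.09 and 0.05, and the sign of Acly turned without peritumoral 4 and 7 (-0.002).

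Genes of SREBP processing and sterol uptake were lower for 8 of the 10 measured, with a median of -0.10 and 0 past the threshold. Among all 19938 genes 11627 were lower. Scap, the sterol-sensing escort, had the smallest p of the pathway genes. It measured 8.82, 8.70, 8.91, 8.85, 8.97, 8.91, 8.80 and 8.99 in tumoral 1 to 8, and 9.17, 9.19, 9.11, 9.04, 9.03, 9.0, 8.92 and 8.97 in peritumoral 1 to 8. The groups overlapped only between 8.92 and 8.99, where 2 arrays of each group lay, and the difference was -0.18 ± 0.06 (standard error, limma, adjusted p = 0.256). Mbtps1, the site-1 protease that makes the first cut in SREBP, and Npc1l1, the intestinal cholesterol transporter, differed by -0.16 and -0.16. Erlin1, an endoplasmic reticulum protein tied to SREBP restraint, differed by 0.30 (limma, adjusted p = 0.381).

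**Figure D5:**
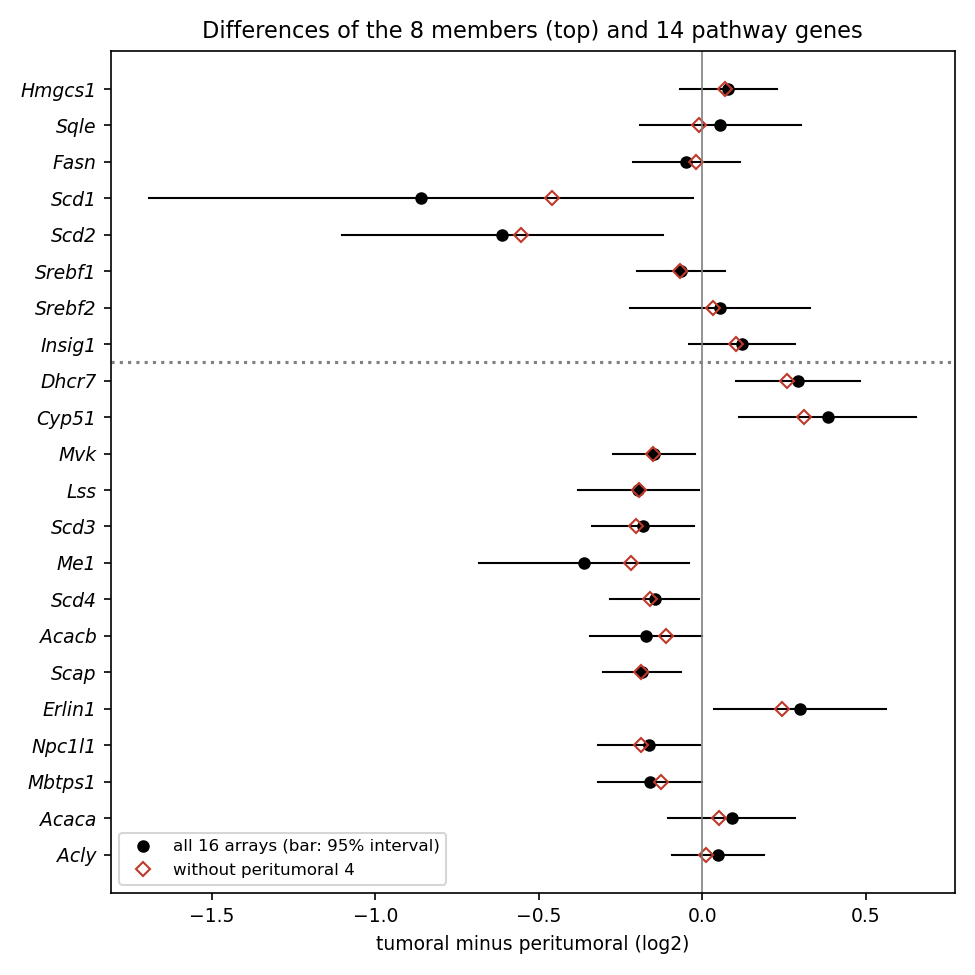
Tumoral minus peritumoral difference on the log2 scale for the 8 genes (above the dotted line) and 14 further pathway genes, with 95% intervals from limma and open diamonds for the difference without peritumoral 4. Scd1 moves from -0.86 to -0.46 without that array, whereas Scap (-0.18) and Dhcr7 (0.29) move by less than 0.05.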

How the data were processed

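Biotin-labelled cDNA from 16 samples of sorted lung myeloid cells was hybridised to an Affymetrix whole-transcript array, per the labels' protocols (miRNeasy extraction, Ambion WT Expression Kit). The authors deposited 28853 probe sets by 16 arrays, read as log2 values since they run from 2.31 to 14.33. The log base and any background correction or normalization are not stated in the sources available. Array medians ran from 6.75 to 6.95. A single symbol was listed for 21789 probe sets, several for 1621 and none for 5443. The brightest single-symbol probe set per gene was kept (19938 genes). Tumoral and peritumoral arrays were set against each other in limma 3.58.1 under R 4.3.3 (lmFit and eBayes with 14 residual degrees of freedom, no filter on dim probe sets), adjusted by Benjamini-Hochberg over all genes at a threshold of 0.05, and the code was tested on simulated data. Correlations used 100000 permutations. The value of a marker list in an array is the mean log2 level of its measured genes, 77 of 82 fixed in 9 lists. Of 51 further pathway genes in 3 lists 44 were measured. Named from each list were the 4 genes with the smallest p, and Acaca and Acly whatever their p. Some genes of these lists are not reported here. The genes and lists were chosen with earlier results of these data known. The number of arrays limits the precision. Alternatives were the title number as a block, quantile normalization, median centring, only brighter genes, weights per array, trended robust variances, averaging a gene's probe sets, a rank-sum test, and leaving out each array, peritumoral 4 and 7, or 7 and 8. The correlations with marker lists and the split at the widest marker gap were added after the data were seen.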

Additional observations from a re-analysis of the deposited data

Results flagged for a closer look

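In a search of 62 sets of 8 values (22 genes and 9 marker lists under each label) for an array whose gap to its neighbour took up more than 0.526 of the range of its group, 9 sets had one, where chance gives about 1 in 20. All 9 were the highest value of peritumoral 4, so they describe 1 array and are not independent. The rate of 1 in 20 therefore cannot be used to judge their number. For Scd1 it was 11.71, with the next peritumoral array at 8.86, and for Acacb it was 7.02, with the next at 6.69. The mean of the type II alveolar cell genes was 10.08, that of the alveolar macrophage genes 8.97 and that of the endothelial genes 10.92. Fibroblast genes averaged 9.39, keratin and carcinoma genes 8.41, lymphocyte genes 8.65 and adipocyte genes 6.48. The adipocyte value lay only 0.12 above the next highest of all 16 arrays, whereas the endothelial value lay 2.26 above it.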

How the results depend on the processing

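The count of the 8 genes past the threshold was 0 in every fit except the one without peritumoral 7 and 8, where it was 1 (Scd2, difference -0.845, adjusted p = 0.0443 in limma). The count over all genes was 0 in the fit of all arrays and ran from 0 to 128 when 1 array was left out, with 128 without peritumoral 7, 20 without peritumoral 8 and 0 without any other. It was 88 without peritumoral 4 and 7 and 522 without peritumoral 7 and 8. The cause was not tested. Directions turned for Fasn after median centring (0.004) and without peritumoral 4 and 7 (0.013), for Sqle without peritumoral 4 (-0.01) and without peritumoral 4 and 7 (-0.002), and for Acly without peritumoral 4 and 7 (-0.002). Leaving out each array in turn gave differences from -0.969 to -0.46 for Scd1, from -0.748 to -0.503 for Scd2, from -0.01 to 0.125 for Sqle and from 0.085 to 0.16 for Insig1. Array weights gave -0.565 for Scd1 and 0.042 for Insig1. Both labels carry the numbers 1 to 8, but no label says that a number marks a mouse, and the deviations of same-numbered arrays correlated between -0.56 and 0.29, with 1 of 8 numbers closest to its own partner. With the replicate number as a block, 0 genes passed, Scd1 had an adjusted p of 0.527 and Scd2 one of 0.451 (limma).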
